A study of Mus musculus with 11 samples.

Results

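The POU5F1 (OCT4) peak lists of mouse epiblast stem cells (EpiSCs) were compared between culture with activin and culture from which activin had been removed. The EpiSC list held 62387 peaks and the activin-free list 126751 peaks on chromosomes 1 to 19 and X, of 1003005 peaks in all 10 lists of the series. They came from 2 of the 11 libraries, 1 library for each culture, so that no difference below could be tested against replicates. A peak was called shared if it overlapped a peak of the other list by at least 1 bp, and otherwise EpiSC-only or activin-free-only.

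The EpiSCs, of strain 129/Sv, were grown without feeders in N2/B27 medium that contained Fgf2 at 10 ng/ml and activin at 20 ng/ml. The activin-free culture had the same history but was kept without activin for the last 18 h. In both, POU5F1 carrying the BLRP tag was expressed from a pCAGGS vector that also encodes the biotin ligase BirA. The tagged protein was recovered on streptavidin after transient transfection, so both lists report exogenous POU5F1 added to the endogenous protein in a mixed population of transfected cells. ZIC2, OTX2, SOX2 and POU3F1 were mapped in the same way in both cultures. The lists give peak positions and scores and no expression values, so marker genes of the EpiSC state could not be read from them. The coding exons of Pou5f1 were covered over 100% of their 1122 bp in both lists, at a score of 3100 in each. Carryover of the vector puts such a peak over the gene of the tagged TF, and it says nothing about binding there. In the activin-free list, peaks also covered 100% of the Zic2 coding bases (score 236.3) and 63.2% of those of Otx2 (121.8), which no EpiSC peak covered, and the part of vector DNA in these was not tested.

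POU5F1 is a POU class TF that reads the octamer sequence, alone or beside SOX2, and it is required in both naive and primed pluripotent cells. EpiSCs represent the primed state of the postimplantation epiblast. Activin and its relative Nodal act through receptors that phosphorylate SMAD2 and SMAD3, and together with FGF they hold EpiSCs in this state, while their loss leads cells toward neural fates.

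Sequence windows are 200 bp long and centred on the peak midpoint, positions are those of mm9, and exact words were searched on both strands. The words were the canonical octamer ATGCAAAT, the variant octamer ATGCATAT and the CG octamer ATGCGCAT, which is its own reverse complement. The third was added after its frequency in these peaks had been seen. Below are stretches around the CG octamer of 6 high-scoring EpiSC-only windows, shown because, of the 3 octamers, this word had the highest ratio of EpiSC-only to shared EpiSC windows. All are plus strand, capitals mark any of the 3 octamers, and each line gives the gene with the nearest TSS.
Sgcd, chr11:47096468-47096507: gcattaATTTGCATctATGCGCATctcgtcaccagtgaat
Gm1587, chr14:78116952-78116991: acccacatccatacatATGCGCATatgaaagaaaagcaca
Sox3, chrX:58140999-58141038: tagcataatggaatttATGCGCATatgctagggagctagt
Pax3, chr1:78225413-78225452: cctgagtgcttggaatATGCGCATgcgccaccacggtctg
Cdk12, chr11:98095726-98095765: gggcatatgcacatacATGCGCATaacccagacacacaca
Rgnef, chr13:98739569-98739608: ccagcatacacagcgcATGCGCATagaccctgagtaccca

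Some EpiSC-only windows carried the canonical octamer in several copies. The following window, from 35.2 kb upstream of Sox4, is shown for its 3 copies, in capitals (plus strand).
Sox4, chr13:29080666-29080865: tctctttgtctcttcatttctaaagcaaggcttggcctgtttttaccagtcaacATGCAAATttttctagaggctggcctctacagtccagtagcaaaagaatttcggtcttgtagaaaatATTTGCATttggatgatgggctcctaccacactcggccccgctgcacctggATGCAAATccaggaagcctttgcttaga

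A composite of a SOX site and an octamer (TTGT, any base, then ATGCAAA) lay in 4 EpiSC-only windows, shown here in the orientation of the word with the composite in capitals. It overlaps the canonical octamer by 7 letters. The first sequence is on the minus strand and the others on the plus strand.
Elavl2, chr4:91114802-91114841: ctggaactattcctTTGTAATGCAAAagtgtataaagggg
Sox9, chr11:112672568-112672607: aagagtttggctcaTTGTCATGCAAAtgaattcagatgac
Rgmb, chr17:15969676-15969715: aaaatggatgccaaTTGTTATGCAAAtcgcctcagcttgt
Prune2, chr19:17212824-17212863: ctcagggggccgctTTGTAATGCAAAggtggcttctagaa

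A further feature, present in a minority of shared peaks but more common there than in EpiSC-only peaks, is shown by a high-scoring example. The window of the shared peak 13.4 kb upstream of Nodal, which encodes the ligand itself, held none of the octamers but a long stretch in which purines and pyrimidines alternate, given in capitals (at least 20 bp, plus strand).
Nodal, chr10:60867232-60867431: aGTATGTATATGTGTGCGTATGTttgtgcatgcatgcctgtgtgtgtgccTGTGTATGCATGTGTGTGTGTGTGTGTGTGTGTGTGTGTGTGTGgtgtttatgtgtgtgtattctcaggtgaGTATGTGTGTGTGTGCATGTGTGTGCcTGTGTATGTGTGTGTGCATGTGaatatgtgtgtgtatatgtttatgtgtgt

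Nearly the whole EpiSC list lay inside the activin-free list. Of the EpiSC peaks, 61348 were shared, or 98.3% (95% Wilson interval 98.2 to 98.4%, which covers counting error only), and 1039 were EpiSC-only. Of the activin-free peaks, 59749 were shared, or 47.1% (46.9 to 47.4%), and 67002 were activin-free-only. The activin-free list was 2.03 times as long, and its median score was 208.4 against 132.7, where the score is −10 log10 of the MACS p-value and starts at 50. The other TFs gave pairs of lists closer in length. The ratio of list lengths was 1.38 for SOX2, 1.10 for OTX2, 0.904 for POU3F1 and 0.895 for ZIC2, and the EpiSC lists were shared at 77.6%, 78.1%, 82.6% and 78.9%, in that order. Their activin-free lists were shared at 55.9% to 91.2%. The peak lists hold no read numbers, and library depth was not analysed here. Since deeper sequencing alone raises both the number and the score of peaks, library depth and activin removal cannot be told apart here. With the 62387 highest-scoring peaks taken from each list, the shared share was 83.6% of EpiSC and 80.6% of activin-free peaks.

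The overlap followed the score. In the EpiSC list the shared share was 92.5% (91.8 to 93.1%) in the lowest score decile, from 50 to 58.5, and 100% of 6239 peaks in the highest decile. In the activin-free list it rose from 4.55% (4.20 to 4.93%) in the lowest decile to 99.9% (99.8 to 99.9%) in the highest. The median score of EpiSC-only peaks was 59.9 and the highest was 249.3, while shared EpiSC peaks had a median of 135.4. Activin-free-only peaks had a median of 105.7, against 597.4 for shared activin-free peaks. Few peaks stood close to the 1-bp rule. The largest overlap was under 100 bp for 16 shared EpiSC peaks, and 14 EpiSC-only peaks ended within 100 bp of an activin-free peak. The median gap of EpiSC-only peaks to the activin-free list was 7591 bp.

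**Figure D1:**
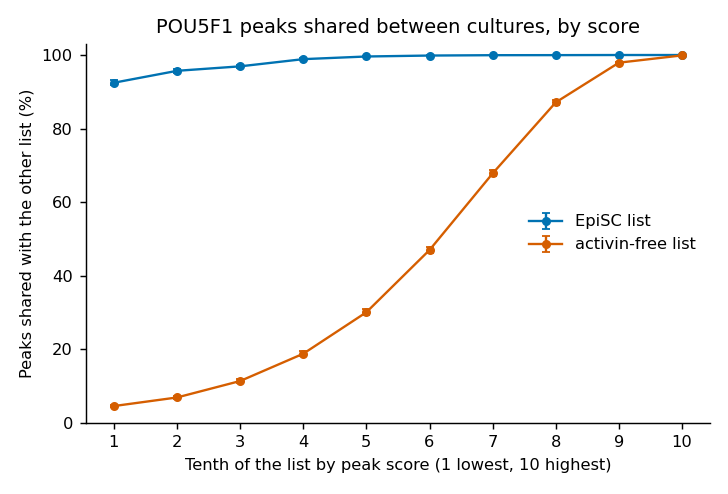
Share of POU5F1 peaks that overlap the other list, by decile of score (EpiSC list blue, activin-free list orange; bars are 95% Wilson intervals, mostly smaller than the points). The EpiSC list stays between 92.5% and 100%, and the activin-free list climbs from 4.55% to 99.9%.

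At shared peaks the score was higher in the activin-free list almost throughout. Among 56896 pairs in which a peak of each list overlapped no further peak, 98.3% scored higher in the activin-free list, the median was 134.7 in EpiSCs and 578.7 without activin, and the median log2 ratio was 1.89 (quartiles 1.38 and 2.37). The peaks kept their order, with Spearman's rho of 0.831 across the pairs, which share 2 libraries and are not independent. Their midpoints differed by a median of 76.5 bp. At the Nodal peak, for example, the score was 1003 with activin and 3018 without it. The score of 3100 recurred in 40 EpiSC and 3111 activin-free peaks, and ratios at such peaks may be understated.

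The gain in score was not even over the genome. The median log2 ratio fell with the GC content of the window, from 2.35 under 25% GC to 1.13 at 50% and over. It was 2.04 where the EpiSC peak also overlapped a POU3F1 peak of EpiSCs and 1.73 where it did not. The POU3F1 list of EpiSCs had a mean GC content of 32.9%, and the difference was in the same direction in each of the 7 GC classes, with 1.74 and 1.51 at 40 to 45% GC. ZIC2, a zinc finger TF of the same cells, went with a lower ratio of 1.55 against 1.91 without it, and OTX2 with 1.66 against 1.91, while for SOX2 the values were 1.85 and 1.89. These values were not split by GC content, and the ZIC2 and OTX2 lists of EpiSCs had means of 55.8% and 43.8% GC. The 992 pairs that did not score higher without activin had a mean GC content of 41.1% against 34.8% for the rest.

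**Figure D2:**
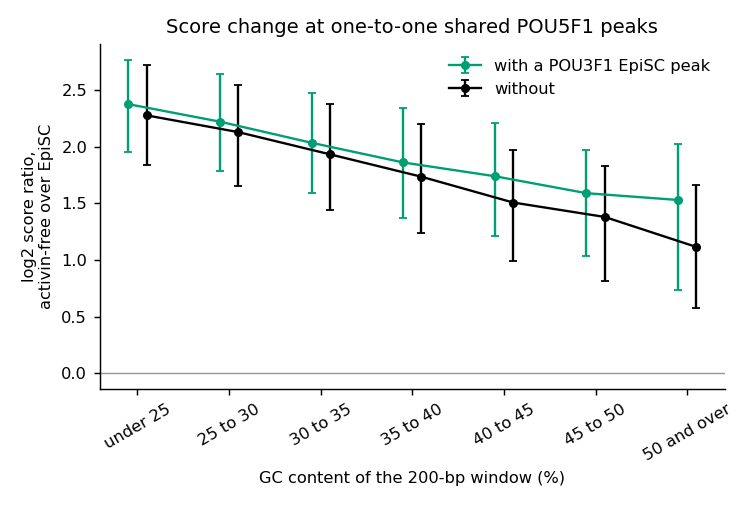
Median log2 ratio of activin-free to EpiSC score at pairs of shared POU5F1 peaks, by GC content of the window, with (green) and without (black) a POU3F1 EpiSC peak; bars run from the lower to the upper quartile of the pairs. Both medians fall with GC, from 2.37 to 1.53 with POU3F1 and from 2.28 to 1.11 without.

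Under the 1-bp rule, EpiSC-only peaks were GC-richer, narrower and more often near a TSS than shared ones. Their windows had a mean GC content of 41.5% (SD 6.73 over 1039 peaks) against 34.8% (SD 6.24) for shared EpiSC peaks and 41.8% for windows taken every 10 kb of the genome. Activin-free-only peaks went the other way, at 32.7% against 34.99% for shared activin-free peaks. The EpiSC-only share of the EpiSC list was 0.228% (0.160 to 0.326%) under 30% GC and 10.7% (8.92 to 12.7%) at 50% and over. Within the lowest score quintile of the EpiSC list, where the median score was 58.3 to 59.0 in all 6 GC classes, it ran from 0.959% to 30.9%. The activin-free-only share fell from 63.2% to 27.1% over the same classes. Lower GC content of the whole list without activin was also seen for OTX2, by 2.43 points, and POU3F1, by 1.01 points, against 1.15 points for POU5F1, while ZIC2 and SOX2 lists were higher by 0.487 and 0.132 points. Recovery of GC-rich fragments can differ between libraries, and its part in these values was not tested.

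**Figure D3:**
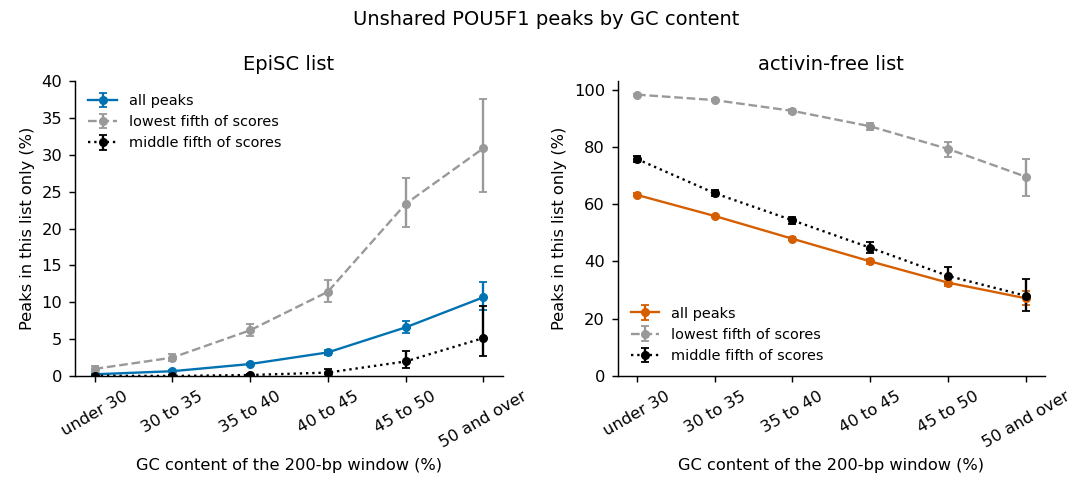
Share of POU5F1 peaks found in 1 list only, by GC content of the 200-bp window, for the EpiSC list (left) and the activin-free list (right), in all peaks, in the lowest and in the middle score quintile; bars are 95% Wilson intervals and the y axes differ. Unshared peaks become more frequent with GC in the EpiSC list (0.228% to 10.7%) and less frequent in the activin-free list (63.2% to 27.1%).

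The median width was 686 bp for EpiSC-only and 968 bp for shared EpiSC peaks. It was 842 bp for activin-free-only and 1185 bp for shared activin-free peaks, a difference of −343 bp that became −32.0 bp with lists of equal size. A TSS of a protein-coding gene lay within 50 kb of 52.5% (49.4 to 55.5%) of EpiSC-only peaks, 41.5% of shared EpiSC peaks and 38.8% of activin-free-only peaks, against 47.8% of genome windows. The difference between EpiSC-only and shared EpiSC peaks, 10.96 points, was 3.41 points with lists of equal size and −4.43 points when sharing required 50% of both peaks. Under 1 kb from a TSS the shares were 3.46%, 1.22% and 1.33%, against 2.29% of genome windows, so POU5F1 peaks of each class were mostly distal.

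The octamers also differed between the classes. The canonical octamer lay in 14.5% (12.5 to 16.8%) of EpiSC-only windows, 6.30% (6.11 to 6.50%) of shared EpiSC windows, 4.53% (4.37 to 4.69%) of activin-free-only windows and 1.76% of genome windows. Windows 1000 bp to either side of EpiSC-only peaks held it in 1.59%. The variant octamer, by contrast, was in 11.7% (9.92 to 13.8%) of EpiSC-only and 12.9% (12.6 to 13.1%) of shared EpiSC windows, whose intervals overlap. It was in 6.84% of activin-free-only windows. The CG octamer was in 6.64% (5.28 to 8.32%) of EpiSC-only windows, 0.690% (0.627 to 0.758%) of shared EpiSC windows, 0.190% (0.159 to 0.225%) of activin-free-only windows and 0.0458% of genome windows. The CG octamer was added after its frequency in these peaks had been seen, so its intervals cannot test its excess in EpiSC-only windows. The canonical or variant octamer was in 25.2% of EpiSC-only and 18.4% of shared EpiSC windows. With the CG octamer counted, at least 1 of the 3 was present in 31.1% of EpiSC-only, 18.9% of shared EpiSC and 11.2% of activin-free-only windows.

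The differences in the canonical and CG octamers were also seen at matched GC content and, separately, at matched score. For the CG octamer these are the windows in which it was picked, so the same limit applies. At 40 to 45% GC the canonical octamer was in 15.99% (12.2 to 20.6%) of 294 EpiSC-only and 5.41% (4.96 to 5.90%) of 8907 shared EpiSC windows, and the CG octamer in 8.50% (5.83 to 12.3%) and 1.32% (1.11 to 1.58%). At the same GC content the variant octamer was in 13.6% of EpiSC-only and 14.5% of shared EpiSC windows. In the lowest score quintile of the EpiSC list the CG octamer was in 5.01% (3.66 to 6.83%) of 738 EpiSC-only and 0.664% (0.533 to 0.828%) of 11741 shared windows. The canonical octamer was in 13.7% of EpiSC-only and 6.82% of shared windows of that quintile. Among shared pairs too, those with a CG octamer gained less score without activin. Their median log2 ratio was 1.15 over 402 pairs against 1.89 for pairs lacking it, and 0.93 against 1.57 within 40 to 45% GC. The canonical octamer went with 1.69 against 1.90. The composite with a SOX site was in 0.385% (0.150 to 0.986%) of EpiSC-only and 0.0864% (0.0661 to 0.113%) of shared EpiSC windows, on 4 and 53 peaks.

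Alternating stretches, as in the Nodal window, were commonest in shared peaks. They lay in 29.8% (29.4 to 30.1%) of shared EpiSC windows, 18.4% (16.1 to 20.9%) of EpiSC-only windows, 16.03% (15.8 to 16.3%) of activin-free-only windows and 3.83% of genome windows. With the shared EpiSC peaks weighted to the GC classes of EpiSC-only peaks, their share was 38.7%, so the gap was wider at equal GC. The GC and octamer differences of EpiSC-only peaks also depended on the 1-bp rule. With lists of equal size they were 3.20 and 2.36 points, against 6.72 and 6.83. When sharing required 50% of both peaks, the difference between EpiSC-only and shared peaks was −0.983 points in GC content and −4.69 points in the share with a canonical or variant octamer. The EpiSC-only class then also held peaks with a smaller overlap.

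**Figure D4:**
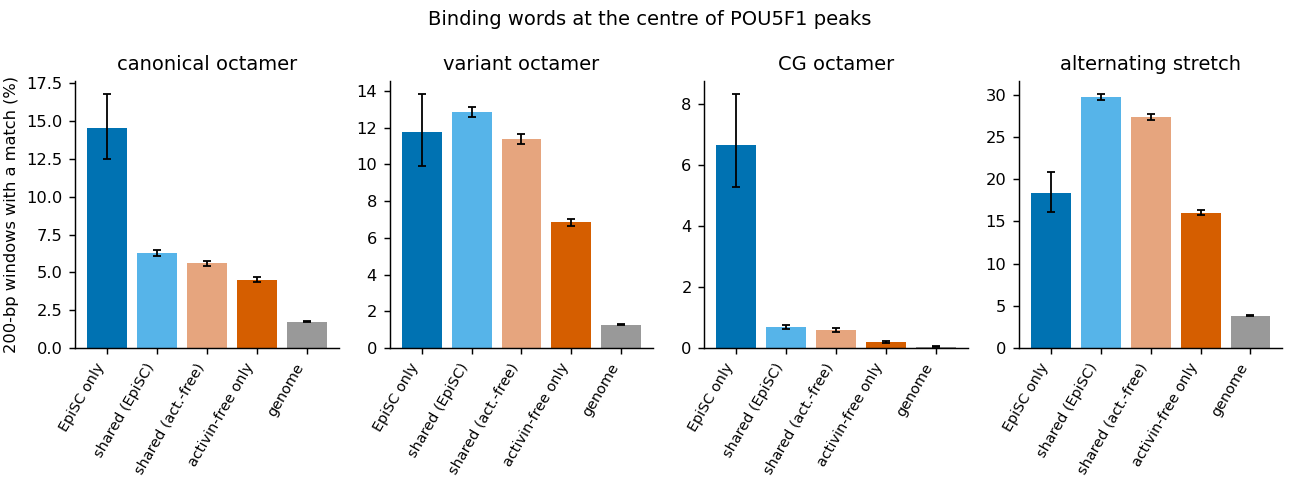
Share of 200-bp windows that hold the canonical octamer, the variant octamer, the CG octamer or an alternating purine and pyrimidine stretch, in the POU5F1 peak classes and in genome windows; bars are 95% Wilson intervals and each panel has its own y axis from 0. EpiSC-only peaks stand highest for the canonical (14.5%) and CG octamers (6.64%), and shared EpiSC peaks for the alternating stretch (29.8%). The CG octamer was added after its frequency in these peaks had been seen.

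The neighbours of POU5F1 differed as well. A POU3F1 peak of EpiSCs overlapped 52.2% (51.8 to 52.6%) of shared EpiSC peaks, 43.6% (43.3 to 44.0%) of activin-free-only peaks and 17.5% (15.3 to 19.9%) of EpiSC-only peaks. With GC content weighted to that of EpiSC-only peaks, the share of shared EpiSC peaks was 33.1%. OTX2, a homeodomain TF of the anterior epiblast, overlapped 17.3% (15.1 to 19.7%) of EpiSC-only and 7.70% of shared EpiSC peaks, or 9.19% after weighting. ZIC2 overlapped 16.2% (14.1 to 18.5%) of EpiSC-only and 5.08% of shared EpiSC peaks, or 9.46% after weighting. For SOX2 the shares were 10.1% (8.42 to 12.1%) and 7.99%, or 6.77% after weighting. In the activin-free lists of the other TFs, POU3F1 overlapped 20.9% of EpiSC-only POU5F1 peaks, OTX2 19.5%, SOX2 17.1% and ZIC2 15.4%. For shared EpiSC peaks these shares were 51.1%, 11.5%, 10.6% and 4.52%. Genome windows, which are narrower than the peaks, gave 6.66%, 6.10%, 3.40% and 5.05%. With the EpiSC lists of these TFs, in the same order, genome windows gave 6.425%, 4.52%, 2.49% and 6.04%.

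By score, the leading EpiSC-only peak lay in an intron of Sgcd, which encodes a sarcoglycan of the muscle membrane (score 249.35). Others of high score were 23.9 kb upstream of Jarid2, whose product accompanies the Polycomb repressive complex PRC2 (205.58), in the first kilobase of Sept6, a septin gene (201.64), and in an intron of Mttp, which encodes a lipid transfer protein (199.56). The Sgcd peak ranked 17669 among the EpiSC peaks. The leading shared peaks had Arid1b, Pex14, Prkca, Faf1 and Scg3 as nearest genes, with scores of 2087.41 to 3100.00 in EpiSCs. They lay 368.6, 80.5, 18.2, 85.8 and 21.9 kb from the TSS, in that order. In the windows of Arid1b and Prkca, 88.2% and 52.9% of the 31-base words sampled occur more than once in mm9, so reads there may not be placed uniquely.

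Of 22202 protein-coding genes with a TSS, 50.4% were nearest gene to at least 1 shared peak, 50.6% to an activin-free-only peak and 4.18% to an EpiSC-only peak. Only 1.56% of the genes with any peak had more EpiSC than activin-free peaks. Among general pluripotency genes, 10 of 12 had a shared peak and 3 had an EpiSC-only peak (Sox2, Sall4 and Zfp281). These were 4 of the list's 42 EpiSC peaks, or 9.52% (3.77 to 22.1%), against 1.67% of all EpiSC peaks. The 10 genes with a shared peak include Pou5f1, whose 2 shared peaks lie over the gene of the tagged TF. Both were kept among the 42, although vector carryover means that they say nothing about binding there. Among naive pluripotency genes, 3 of 11 matched had an EpiSC-only peak (Klf5, Tbx3 and Dppa3), and among primed epiblast genes 4 of 12, which included Pou3f1, Dnmt3a and Sox3. Each of these lists had 4 EpiSC-only peaks, or 6.56% (2.58 to 15.7%) and 5.797% (2.28 to 13.98%) of its EpiSC peaks. The shares of the general, naive and primed lists were not matched to that of all peaks for score or GC content. The 4 EpiSC-only peaks of the general list scored 59.53 to 65.77, and 2 of them had Sox2 as nearest gene. In the score decile from 58.5 to 69.5, 95.7% of EpiSC peaks were shared. The intervals cover counting error only, and neighbouring peaks are not independent. By number of peaks, Sox2, Zfp281, Foxd3 and Mycn led the general list, with 19, 7, 5 and 2 EpiSC and 35, 12, 7 and 4 activin-free peaks. In the naive list Tbx3, a T-box gene, had 28 and 34, Nr5a2, a nuclear receptor gene, 11 and 25, and Klf4, a zinc finger TF gene, 7 and 23. In the primed list Lin28b had 16 and 17 and Otx2 12 and 17. Nearly all of their EpiSC peaks were shared. The medians of 1 to 2 EpiSC peaks a gene in these lists compare with 1 over all genes, and genes with more peaks have more chances of each class.

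For the Nodal and activin pathway, added activin had been withdrawn, and the signal itself was not measured. In its gene list, 1 of 138 EpiSC peaks was EpiSC-only, or 0.725%. Its interval (0.128 to 3.99%) includes the 1.67% of all EpiSC peaks. Activin-free-only peaks made up 53.5% of the list's activin-free peaks and 52.9% of all. Of 23 members, 18 had a shared peak and 15 an activin-free-only peak. At Nodal the single peak was shared. Acvr2a, a type II receptor gene, had 68 EpiSC and 142 activin-free peaks, Inhba, which encodes the activin A subunit, 16 and 36, and Smad7, an inhibitory SMAD gene, 5 and 8. The feedback inhibitor genes Lefty1 and Lefty2 had 1 shared peak each, scoring 55.5 and 125.7 with activin and 217.1 and 1295 without. Smad2 had 2 EpiSC and 10 activin-free peaks, none above a score of 158.1. Acvr1b, Foxh1 and Gdf3 were nearest to no peak of either list. The median log2 ratio of shared pairs was 1.81 over 124 pairs of this list and 1.89 over all pairs.

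Primitive streak and endoderm genes had 0 EpiSC-only peaks among 47, which allows up to 7.56%, against 1.67% of all EpiSC peaks. Gata6 had 10 EpiSC and 12 activin-free peaks, Sp5 8 and 14, Foxa2 7 and 12, and Eomes 7 and 11. At T (brachyury), 5 peaks were shared, with scores of 103.86 to 940.79 in EpiSCs and 207.36 to 3132.04 without activin. Neural plate genes had 1 EpiSC-only peak among 120, or 0.833% (0.147 to 4.57%), 209.2 kb upstream of Sp8. Neither interval excludes the share over all peaks. Pou3f2, a POU gene of the neural plate, had 29 and 69 peaks, Sp8 27 and 39, and En1 and Fezf2 10 EpiSC peaks each, with 19 and 18 without activin. Pax6, a regulator of eye and forebrain, had 2 EpiSC peaks that were both shared and 5 further activin-free peaks, which scored 97.84 to 518.50. The median log2 ratio was 1.83 for streak and 1.80 for neural pairs.

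The Sox2 locus held both kinds of unshared peaks. Sox2 was the nearest gene of 19 EpiSC and 35 activin-free peaks. The EpiSC-only peaks were at chr3:34544870-34545775, 3.60 kb upstream of the TSS with a score of 65.77, and at chr3:34552492-34553181, 3.78 kb downstream with a score of 59.66. They were the EpiSC peaks nearest to the gene on either side. The upstream one overlapped ZIC2 and OTX2 peaks of EpiSCs and an OTX2 peak of the activin-free culture. Its window is shown because the region upstream of Sox2 regulates the gene in the epiblast. The window holds no exact match to the 3 octamers, and words with mismatches were not searched.
Sox2, chr3:34545223-34545422 (plus strand): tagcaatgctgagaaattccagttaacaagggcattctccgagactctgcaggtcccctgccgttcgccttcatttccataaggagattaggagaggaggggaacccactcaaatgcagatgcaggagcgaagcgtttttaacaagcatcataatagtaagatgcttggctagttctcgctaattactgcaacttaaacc

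The other 17 EpiSC peaks at Sox2 were shared, and each scored higher without activin, with log2 ratios from 1.23 to 3.09. The highest, 49.8 kb upstream, scored 1158.18 with activin and 3100.00 without. The 18 activin-free-only peaks scored 51.51 to 694.92. Both EpiSC-only scores lay near the threshold of 50, where 1 library cannot separate loss of a peak from counting error.

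**Figure D5:**
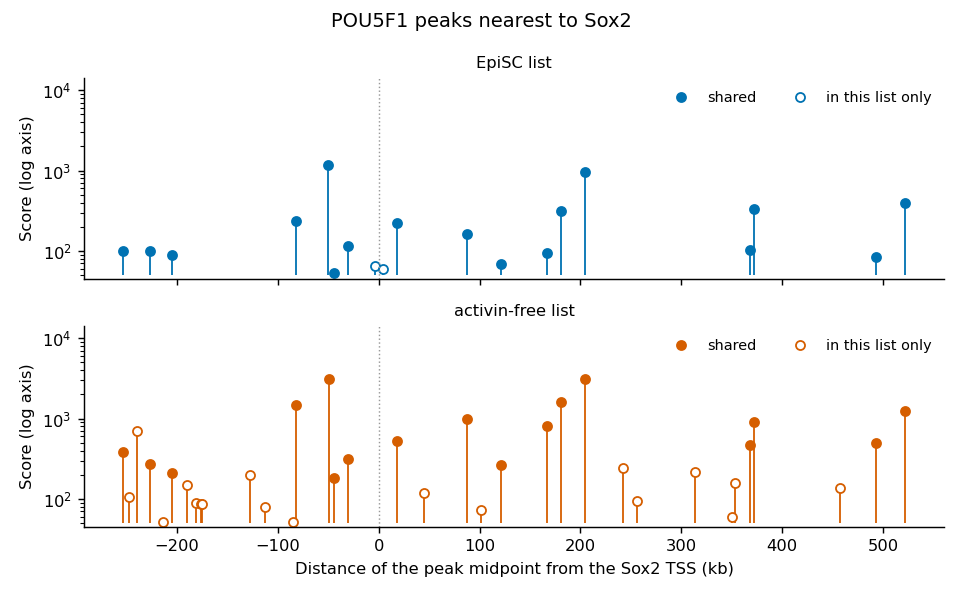
Scores (log axis) of POU5F1 peaks with Sox2 as nearest gene, by distance of the midpoint from the Sox2 TSS, in the EpiSC list (top, 19 peaks) and the activin-free list (bottom, 35 peaks); filled points are shared and open points are in that list only. The open EpiSC points lie 3.60 kb upstream and 3.78 kb downstream.

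At Nanog and Fgf5 each EpiSC peak was shared. Nanog, a homeobox gene of both pluripotent states, had 1 peak 31.03 kb upstream, which scored 94.33 with activin and 467.67 without. Fgf5, a gene of the primed epiblast, had 6 EpiSC peaks, all shared, with scores of 53.47 to 680.68 against 203.68 to 2928.79 without activin, and 2 activin-free-only peaks. Sall4, a zinc finger TF gene, had 2 EpiSC peaks, 1 of which was EpiSC-only at 3.13 kb from the TSS with a score of 65.19. Pou3f1 had a single EpiSC peak, 11.9 kb upstream with a score of 79.25 and a window GC content of 60%, and no peak without activin. Sox3 had an EpiSC-only peak 5.29 kb downstream with a score of 135.94, whose CG octamer is shown above, among 8 EpiSC peaks.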

How the data were processed

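Peaks of BLRP-tagged, biotinylated POU5F1 were analysed in 2 libraries, EpiSC and activin-free. Reads had been aligned to mm9 (Bowtie2), and MACS1.4 had been run by the authors on each library with the input as reference. The series holds 1 input library, from EpiSCs with activin, and none from the activin-free culture. The deposited score of each peak is −10 log10 of its p-value. The lists hold no reads, so library depth was not analysed here and peaks were taken as called. Python 3.11.15, numpy 2.4.6, pandas 2.3.3 and pysam 0.24.0 were used. The GENCODE vM1 annotation gave TSSs and nearest protein-coding genes, and mm9 gave sequences. Words were searched in 200-bp windows, with 255579 windows every 10 kb as background. Intervals are 95% Wilson intervals for shares of peaks and cover counting error only. Neighbouring peaks are not independent, and with 1 library a culture no test was possible. The overlap, octamer search and nearest-TSS steps were tested on simulated data. The comparison, gene lists and words were chosen with earlier results of these data known. Named peaks were the 5 of best rank in each class, away from genes of the tagged TFs, and named genes were those with most peaks in each class and the list members with most peaks, up to 4 a list, with 7 loci (Pou5f1, Sox2, Nanog, Nodal, Fgf5, T and Pax6) peak by peak. Lefty1, Lefty2, Acvr1b, Foxh1, Gdf3 and the sequences shown other than those of the leading peaks were chosen after their values were seen. The CG octamer and the count of repeated 31-base words were added after seeing the data. Some genes that the rule names are not reported here.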

Additional observations from a re-analysis of the deposited data

Results flagged for a closer look

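Peaks outside chromosomes 1 to 19 and X were not used in any comparison. There were 70 such POU5F1 peaks in the EpiSC list, with a median score of 133.4, and 157 in the activin-free list, with a median of 192.0. None of them was on chromosome Y. They were picked out because they are signal in sequences that the comparisons left out.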

How the results depend on the processing

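No paired analysis was possible because each culture had 1 library. Of 91 values recomputed under alternatives, 26 stayed within the interval of the value reported (counts within 1.5 times), 58 moved in the same direction and 7 reversed. Differences below are unshared minus shared, in the order width (bp), GC content, share within 50 kb of a TSS, share with a canonical or variant octamer and share with an alternating stretch (points), without those that stayed. With overlap of 50% of both peaks, 86.8% of EpiSC and 42.7% of activin-free peaks were shared. The differences were −103, −0.983, −4.43, −4.69 and −16.6 for EpiSC-only, and for activin-free-only −277 in width, −3.69 near a TSS, −6.56 and −14.1. Under this rule 54169 EpiSC peaks were shared, against 61348 under the 1-bp rule. The EpiSC-only class then also held peaks that overlap an activin-free peak to a smaller extent. The cause of the 3 reversals was not tested. With scores of at least 100 (38911 EpiSC peaks), the shares were 99.4% and 40.9%. The differences were −311, 7.89, 15.1, 10.4 and −16.0 for EpiSC-only, and −306, −5.74 (octamer) and −12.9 for activin-free-only. Genes with an EpiSC-only peak numbered 227. With lists of 62387 peaks each, the shares were 83.6% and 80.6%. The differences were −264, 3.20, 3.41, 2.36 and −6.47, and −32.0, −2.73, −3.71, −6.59 and −13.2. Genes with an EpiSC-only peak numbered 5132 and those with an activin-free-only peak 4559, against 927 and 11225 as reported. With 34678 and 67235 peaks under 1000 bp, the shares were 47.9% and 24.8%. The differences were 61.0, −2.92, −9.15 and −5.68 (4 reversals), and −55.0, −3.52, −6.41, −7.82 and −15.3. This filter removes the wide partners of narrow peaks. With classes from the full lists and narrow peaks compared afterwards, an alternative chosen after seeing the data, the differences were −147 and 6.17 for EpiSC-only, and −72.0, −3.73, −7.43, −8.97 and −17.8 for activin-free-only. The activin-free share was 47.7% after merging peaks within 150 bp and 47.9% on autosomes alone. GC content over whole peaks differed by 5.00 and −2.16 points, octamers within 250 bp of the midpoint by 3.32 and −8.27 points, and stretches of at least 30 bp by −7.89 points in activin-free-only peaks. Scores do not give depth, so peaks near the threshold of 50 carry least weight.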

Other observations

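The genes nearest to most activin-free-only peaks were Pcdh7, Dmd, Cdh9, Csmd3 and Lingo2. Pcdh7, a protocadherin gene, had 227 among its 370 activin-free peaks, and Dmd, which encodes dystrophin, 211 of 317. Cdh9, a cadherin gene, had 205 of 349, Csmd3 196 of 334 and Lingo2 186 of 293. The share was 52.9% over all activin-free peaks, and genes with more peaks have more chances of each class. Pcdh7, Cdh9 and Csmd3 were also among the 5 leading genes of the shared class, with 157 shared peaks nearest to Lrp1b, 144 to Cdh9, 143 to Pcdh7, 138 to Csmd3 and 136 to Epha7, an ephrin receptor gene. Of these 7 genes, Epha7 alone had an EpiSC-only peak. EpiSC-only peaks were most numerous at Sox4, a SOX family TF gene, with 5 of its 19 EpiSC peaks. Magi1 and Pde4d had 4 each, of 24 and 59 EpiSC peaks. Dip2c and Fign were among those with 3, of 20 genes with 3 or more. Over all EpiSC peaks the EpiSC-only share was 1.67%. At Sox4, 3 of the 14 shared pairs scored lower without activin, and the median log2 ratio was 1.09.

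Some of the leading activin-free-only peaks lay in repeated sequence. At Gm15319, peaks at chr8:19872102-19876081 and chr8:19999227-20003087 both scored 3100.00 and had no EpiSC counterpart, and 100% of the 31-base words sampled in each window occur more than once in mm9. Windows with more than 50% repeated words made up 14% (8.53 to 22.1%) of the 100 highest-scoring activin-free-only peaks, against 6% (2.78 to 12.5%) of the 100 highest shared activin-free peaks, and these intervals overlap. Over all peaks the shares were 3.38% for activin-free-only, 3.83% for shared EpiSC and 7.31% (5.88 to 9.06%) for EpiSC-only peaks, but only 1 of the 100 highest-scoring EpiSC-only windows was of this kind.

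Among words of 8 bases found in at least 20 EpiSC-only windows, the 15 with the highest ratio to shared EpiSC windows were led by GCCTGGCC, in 28 EpiSC-only windows, at 10.9 times and the CG octamer, in 69, at 9.63 times. The 15 included 4 words with GCGC. Of the other 11 words, 139 EpiSC-only windows held at least 1, and 25 EpiSC-only windows held 3 or more. All 15 words were picked for their frequency in these same windows. Windows of the other classes that held any of the 11 were not counted, so these counts have no background beside them. Of the 69 EpiSC-only peaks with a CG octamer, 5.797% (2.28 to 13.98%) overlapped a POU3F1 peak of EpiSCs, against 18.4% (16.04 to 20.9%) of those without it. The 5.797% stands for 4 peaks, and the comparison was not matched for GC content. Among all EpiSC-only peaks the POU3F1 overlap was 44.8% at 30 to 35% GC and 4.19% at 45 to 50%. The CG octamer was in 3.20% and 7.91% of the same classes.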
